A study of Mus musculus with 15 samples.

Results

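Asparagine-linked glycans are built in 4 consecutive steps, and the 43 mouse genes followed here encode the enzymes of those steps. Of these genes, 19 assemble the dolichol-linked precursor, 8 encode subunits of the oligosaccharyltransferase that moves it onto proteins, 7 trim the transferred glycan, and 9 add branches, core fucose or galactose. The genes were taken by symbol from a list of the pathway. The rule itself uses no measured value, but the list was chosen with earlier results of these data known. All 43 were found among the 53380 features of the count tables, and all 43 had enough counts to be among the 14485 genes tested. The cells were a mouse model of T-ALL, a leukemia of immature T cells, grown in culture, in which a human MYC transgene is switched off by doxycycline. They derive from tumors of EμSRα-tTA/tet-O-MYC mice, so that tTA, itself driven by the EμSRα promoter, drives MYC until the drug is added. Every library carries both transgenes, and the 0 h libraries come from mock-treated cells. Polyadenylated RNA was sequenced at 0, 2, 4, 8 and 24 h, with 3 libraries at each time and 15 in all. Whether the libraries of a time came from separate cultures, and whether the cells were 1 clone, is not stated, so the p-values measure the spread between these libraries, which may be technical.

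The precursor is a branched sugar of N-acetylglucosamine, mannose and glucose that is put together on the lipid dolichol, first on the cytosolic and then on the lumenal face of the endoplasmic reticulum (ER). The oligosaccharyltransferase transfers the whole sugar to asparagines of nascent proteins. Glucosidases and mannosidases of the ER and Golgi then cut it back while lectin chaperones read the remaining sugars to monitor folding. In the Golgi, N-acetylglucosaminyltransferases start new branches that are galactosylated, and in T cells the number of these branches sets how receptors at the surface are bound by galectins.

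Library totals ranged from 25852711 to 27102318 counts, which makes 3 counts, the floor used here, equal to 0.111 to 0.116 CPM (counts scaled for library size). The MYC transgene had 49894 to 53280 counts in the 0 h libraries and, in time order, 605 to 694, 210 to 277, 130 to 162 and 87 to 106 at 2, 4, 8 and 24 h, as the labels imply. Mouse Myc had 1 count over the 15 libraries. All 8 T cell markers were counted, at a summed 4649 to 5277 CPM at 24 h and 2949 to 3007 CPM at 0 h. B cell and erythroid markers summed to at most 0.367 and 0.0792 CPM in any library. The 5 myeloid markers summed to 24.0 to 29.2 CPM at 24 h and 9.42 to 11.6 CPM at 0 h. Of these, Itgam had 19.3 to 22.0 CPM at 24 h and 2.31 to 2.73 CPM at 0 h, and Lyz2 and Cd14 were at 0 in every library. Csf1r did not share this rise, with 3.05 to 5.45 TPM at 24 h and 3.60 to 4.84 TPM at 0 h (TPM is explained below). The 4 stromal and endothelial markers summed to 117 to 139 CPM at 24 h and 55.4 to 58.5 CPM at 0 h, nearly all from Pecam1 (Col3a1 was at 0), and the part of such RNA in the results below was not tested. Replicate 3 at 24 h stood apart: the chi-square of its counts against the other 24 h libraries, divided by the degrees of freedom, was 85.0 and 93.7, whereas the 13 other pairs of 1 time gave 2.94 to 17.9. Of its counts 3.25% came from protein-coding genes whose symbols begin with Rpl or Rps and a digit, a rough stand-in for ribosomal protein genes. This share was 5.06% and 5.36% in its sister libraries and 8.99% to 11.9% at the earlier times.

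After MYC was turned off, more genes of the pathway fell than rose, and the 4 steps differed in how uniform this was. The counts were scaled by TMM, which sets libraries level on genes that change little between them. At 2 h, 2 of the 43 genes were higher and 7 lower than at 0 h by edgeR's quasi-likelihood test at an adjusted p under 0.01, where 6.6% of all tested genes were higher and 8.59% lower (15.2% together). At 4 h 5 were higher and 19 lower (18.1% and 19.9% of all tested genes, 38.1% together), at 8 h 7 and 23 (25.3% and 25.1%, 50.4% together), and at 24 h 6 and 23 (30.7% and 28.1%, 58.8% together). The median log2 fold change of the 43 genes was −0.09, −0.20, −0.31 and −0.32 at 2, 4, 8 and 24 h, beside 0.01, 0.08, 0.09 and 0.07 over all tested genes. Tested over the 4 later times together, 35 of the 43 changed, where 74.2% of all tested genes did. These comparisons share the 0 h libraries. In bulk RNA, fewer cells that make a transcript and less of it per cell cannot be told apart.

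The direction of the smaller changes depended on how libraries were scaled. Scaled to library totals in place of TMM, which moved the median of all genes up by 0.11 at 8 h and 0.27 at 24 h on the log2 scale, 11 of the 43 genes were higher and 17 lower at 24 h, where 43.9% and 19.7% of all tested genes were. With upper-quartile factors 8, 9 and 7 genes were higher and 17, 18 and 20 lower at 4, 8 and 24 h. These factors moved the median of all genes by 0.10, 0.16 and 0.14 at these times, with 24.7%, 34.1% and 37.1% of all tested genes higher and 16.7%, 19.7% and 23.4% lower. Size factors by the RLE method gave 1 and 9 at 2 h (5.45% and 10.6% of all tested genes). In the fit that left out replicate 3 of 24 h, 3, 7, 8 and 7 genes were higher and 10, 22, 26 and 26 lower at 2, 4, 8 and 24 h. Of all genes tested in that fit 11.9%, 26.5%, 31.8% and 32% were higher and 14.8%, 24.8%, 29.6% and 30.7% lower.

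**Figure D1:**
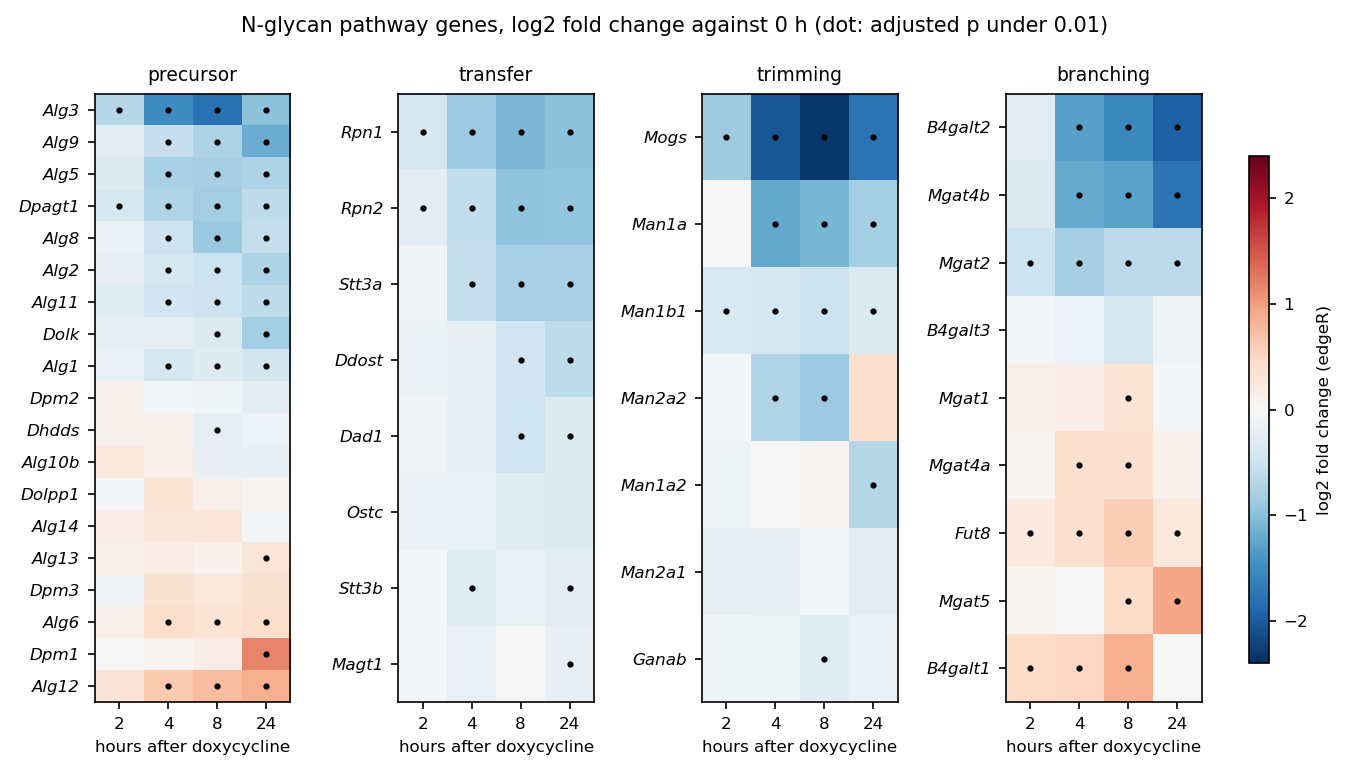
Log2 fold change against 0 h (color, edgeR) of the 43 genes at 2, 4, 8 and 24 h after doxycycline, 1 panel per step, with a dot where the adjusted p was under 0.01. Mogs has the deepest fall (−2.32 at 8 h), no gene of the transfer or trimming panels has a dot on a rise, and the branching panel holds both falls (B4galt2, Mgat4b, Mgat2) and rises (B4galt1, Fut8, Mgat5).

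By step, the transferase and the trimming enzymes moved in 1 direction only among the calls. Of the 8 transferase genes, 0 were higher at any time and 2, 4, 5 and 7 were lower at 2, 4, 8 and 24 h. Of the 7 trimming genes, 0 were higher and 2, 4, 5 and 4 were lower. In neither step did DESeq2 or an unadjusted p under 0.05 add a gene that was higher than at 0 h. The 19 precursor genes went both ways, with 0, 2, 2 and 4 higher and 2, 8, 10 and 9 lower, and so did the 9 branching genes, with 2, 3, 5 and 2 higher and 1, 3, 3 and 3 lower. Of all tested genes 6.6%, 18.1%, 25.3% and 30.7% were higher at these times, and 8.59%, 19.9%, 25.1% and 28.1% lower. The median log2 fold changes at 8 h were −0.24 for the precursor genes, −0.47 for the transferase, −0.51 for trimming and 0.34 for branching. At 24 h they were −0.25, −0.47, −0.34 and −0.03. The medians at 24 h followed the scaling: with library totals they were 0.02 for the precursor genes, −0.19 for the transferase, −0.07 for trimming and 0.24 for branching. With library totals at 24 h 5 precursor genes were higher and 7 lower, 4 transferase genes were lower and none higher, 1 trimming gene (Man2a2) was higher and 3 lower, and 5 branching genes were higher and 3 lower. With that scaling 43.9% of all tested genes were higher at 24 h and 19.7% lower. In the fit that left out replicate 3 of 24 h, 6 transferase genes and 6 trimming genes were lower at 24 h and none was higher. Of all genes tested in that fit 32% were higher at 24 h and 30.7% lower. The differences between the steps were not tested.

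Per length of annotated exons, the transferase genes were the most abundant group at 0 h. Their median was 133 TPM (counts per gene length, scaled to the same total in every library, as deposited by the authors), with Ddost highest of all 43 genes at 344 ± 12.8 TPM (SD, n = 3) and Magt1 lowest of the step at 44.3 ± 0.837 TPM. For most of the 43 genes this length is that of all annotated exons merged, not of 1 transcript. Levels compared between genes therefore depend on the annotation. The trimming genes had a median of 44.9 TPM and ranged from 5.29 TPM for Man1a to 151 TPM for Mogs, which ranked behind only Ddost and Ostc among the 43. The branching genes had a median of 24.9 TPM, between 5.92 TPM for B4galt2 and 107 TPM for Mgat2. The precursor genes had the lowest median, 19.8 TPM, and ran from 0.783 TPM for Dpm1 to 57.9 TPM for Alg10b. The level of Dpm1 is uncertain, because some of its exon bases are shared with another gene on the same strand. At 24 h Ddost was again the highest, and Mogs had a mean of 57.2 TPM. The order of Ganab, Ostc and Stt3b behind Ddost differed between libraries: Ganab had 144, 143 and 211 TPM at 24 h, Ostc 184, 172 and 124 TPM and Stt3b 142, 144 and 174 TPM, so that Ostc was above Ganab in replicates 1 and 2 and below it in replicate 3. TPM is relative to each library's own total, and on this scale 13 genes had higher means at 24 h than at 0 h although their log2 fold changes on the TMM scale were below 0. These were Ostc, Stt3b, Ganab, Dad1, Mgat1, Alg10b, Dpm2, Man1b1, Magt1, Dhdds, Man2a1, B4galt3 and Alg14. Without 24 h replicate 3 this held for 8 of the 13, and not for Stt3b, Man1b1, Alg10b, Man2a1 and B4galt3.

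**Figure D2:**
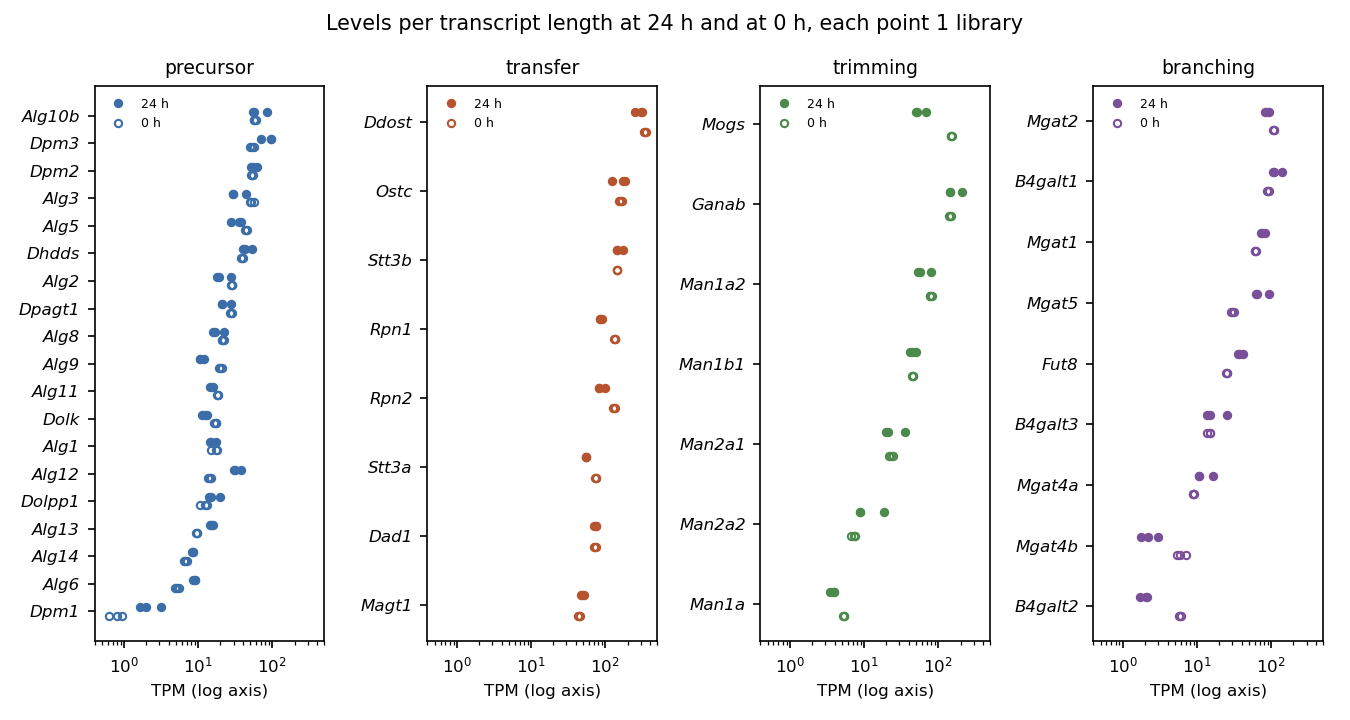
TPM on a log axis of the 43 genes at 24 h (filled, upper) and 0 h (open, lower), each point 1 library, 1 panel per step and genes in the order of their 0 h mean. Mogs drops out of the top of the trimming panel (57.2 TPM at 24 h and 151 TPM at 0 h), and Mgat5 and Alg12 lie to the right of their 0 h points.

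Among the precursor genes the mannosyltransferase Alg3 fell most. Alg3 (ENSMUSG00000033809.14, chr16:20605374-20611735 of GRCm38) adds the first mannose on the lumenal side from dolichol-phosphate mannose. It had 27.7, 32.2 and 27.9 CPM (0 h), 17.04, 18.7 and 18.7 (2 h), 11.7, 10.6 and 8.98 (4 h), 8.98, 8.89 and 7.59 (8 h), and 13.3, 13.3 and 17.7 (24 h), in CPM on TMM-scaled totals as for all genes here. Each later group lay below the 0 h libraries, and the 24 h libraries lay above those at 8 h. The log2 fold change against 0 h was −0.69 (SE 0.121, edgeR adjusted p 0.000610) at 2 h, −1.49 (edgeR adjusted p 9.28e-08) at 4 h and −1.78 (edgeR adjusted p 7.62e-09) at 8 h. At 24 h it was −0.98 (edgeR adjusted p 2.96e-06), and the step from 8 h to 24 h was a rise of 0.80 (edgeR adjusted p 0.000124, and 0.65 with adjusted p 5.20e-05 without 24 h replicate 3). Alg3 shares 8.7% of its exon bases with genes of the opposite strand, and the sources used here do not say whether the counting used strand.

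Alg9, which adds lumenal mannoses after Alg3, had lower values at each later time instead. It had 30.4, 28.5 and 29.2 CPM (0 h), 25.6, 23.6 and 23.6 (2 h), 21.5, 18.7 and 19.7 (4 h), 18.7, 16.8 and 17.3 (8 h), and 13.1, 12.98 and 12.7 (24 h). The 24 h libraries were the lowest. They gave a log2 fold change of −1.19 (SE 0.0756, edgeR adjusted p 1.44e-09) against 0 h and of −0.45 (edgeR adjusted p 0.000201) against 8 h, and the test at 2 h was not passed (−0.28). Of the exon bases of Alg9, 12.9% are shared with 1110032A03Rik on the other strand. Alg8, a glucosyltransferase of the precursor, had 22.05, 22.9 and 23.6 CPM (0 h), 19.9, 19.6 and 22.3 (2 h), 16.6, 15.9 and 16.1 (4 h), 13.4, 11.8 and 11.9 (8 h), and 14.9, 13.8 and 17.1 (24 h). It was lowest at 8 h, with a log2 fold change of −0.88 (SE 0.0908, edgeR adjusted p 5.45e-07), and stood at −0.58 (edgeR adjusted p 3.03e-05) at 24 h, a call that library totals removed. Alg12, which adds a lumenal mannose next to those of Alg9, went the other way, with 0.64 at 4 h, 0.73 at 8 h and 0.86 (SE 0.105, edgeR adjusted p 2.59e-06) at 24 h.

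Dpm1, the catalytic subunit of dolichol-phosphate mannose synthase, had few counts and was higher only in the 24 h group. It had 2.22, 1.83 and 2.65 CPM (0 h), 2.10, 2.15 and 2.55 (2 h), 1.77, 2.52 and 2.73 (4 h), 2.49, 2.44 and 2.65 (8 h), and 3.87, 4.73 and 6.45 (24 h), so that the 24 h libraries lay above all 12 others and ranged widely. The log2 fold change at 24 h was 1.16 (SE 0.204, edgeR adjusted p 0.000109), or 0.94 without 24 h replicate 3 (edgeR adjusted p 0.000119). Its 15 libraries held 1176 counts in all, and 895 of its 7489 exon bases (11.95%) are shared with Gm20716 on the same strand. How its reads were split is therefore uncertain, and so is its level. The synthase's other subunits, Dpm2 and Dpm3, passed the test at no time, with log2 fold changes at 24 h of −0.25 and 0.37 (edgeR adjusted p 0.0157 and 0.0319). Without 24 h replicate 3, Dpm3 was higher at 24 h, by 0.56 (edgeR adjusted p 9.27e-06).

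Of the genes that act on the cytosolic side, Dpagt1, Alg1, Alg2, Alg11 and Alg5 fell, whereas Alg13 and Alg14 did not. Dpagt1, which puts the first N-acetylglucosamine phosphate on dolichol phosphate and is the target of tunicamycin, was already lower at 2 h (−0.42, SE 0.0856, edgeR adjusted p 0.00194) and had log2 fold changes of −0.72, −0.83 and −0.62 at 4, 8 and 24 h. Its call at 2 h was lost without 2 h replicate 1. The cytosolic mannosyltransferases Alg1, Alg2 and Alg11 were lower at 4, 8 and 24 h, with log2 fold changes at 24 h of −0.44, −0.75 and −0.62 (adjusted p 7.97e-05, 4.59e-06 and 7.71e-06 from edgeR). For Alg1 the call at 24 h was lost with library totals, and 17.6% of its exon bases are shared with Eef2kmt on the other strand. Alg5, which makes dolichol-phosphate glucose, was lower at the same times (−0.78, −0.80 and −0.73). Alg13 and Alg14 jointly add the second N-acetylglucosamine. Alg13 was higher at 24 h only (0.30, edgeR adjusted p 0.000749), and Alg14 was called at no time, with values of 0.17 to 0.29 up to 8 h and −0.02 at 24 h.

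The glucosyltransferases and the dolichol enzymes did not share 1 direction. Alg6, which adds the first glucose, was higher at 4, 8 and 24 h (0.41, 0.32 and 0.42), but its call at 8 h was lost in 15 of 23 alternatives, that is, in fits with another scaling, filter, tool or block or with 1 library left out. Alg10b, which adds the last glucose, was called against 0 h at no time (0.26, 0.16, −0.20 and −0.19), and without 24 h replicate 3 it was lower at 24 h (−0.35, edgeR adjusted p 0.000257). The dolichol kinase Dolk was lower at 24 h, with −0.81 (SE 0.102, edgeR adjusted p 3.54e-06), and further than at 8 h, where its call was lost in 9 of 23 alternatives. Dhdds, a subunit of the enzyme that elongates the dolichol chain, had −0.24 at 8 h (edgeR adjusted p 0.00981, lost in 11 of 23 alternatives), and Dolpp1, a dolichyl pyrophosphate phosphatase, was called at no time. Among further genes of this step, Nus1, the partner of Dhdds, was lower at all 4 times, with 99.97, 106 and 109 CPM (0 h), 79.4, 80.5 and 79.2 (2 h), 52.9, 52.5 and 52.04 (4 h), 48.04, 48.3 and 50.6 (8 h), and 42.1, 42.1 and 38.2 (24 h), and a log2 fold change of −1.36 (SE 0.0600, edgeR adjusted p 1.77e-11) at 24 h. Mpdu1, required for the use of dolichol-phosphate sugars, was higher at all 4 times (0.49, 0.65, 0.53 and 0.31). Srd5a3, a polyprenol reductase, was lower at 24 h (−0.34), but its TPM values overlapped, with 12.2, 12.2 and 15.4 at 24 h and 12.2, 13.8 and 13.2 at 0 h.

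The ribophorins led the fall of the oligosaccharyltransferase. Rpn1 and Rpn2 are structural subunits present in both forms of the enzyme. Rpn1 (ENSMUSG00000030062.7, chr6:88084482-88105304) had 229, 232 and 234 CPM (0 h), 177, 176 and 171 (2 h), 129, 123 and 128 (4 h), 113, 104 and 111 (8 h), and 128, 121 and 104 (24 h). All later libraries lay below those at 0 h, and the drop was spread over the first 8 h. Its log2 fold change was −0.41 (SE 0.0693, edgeR adjusted p 0.000473) at 2 h and −1.08 (edgeR adjusted p 2.67e-09) at 8 h, and it was −0.98 (edgeR adjusted p 5.78e-09) at 24 h. Rpn2 had 227, 217 and 225 CPM (0 h), 183, 188 and 182 (2 h), 156, 145 and 140.5 (4 h), 124, 112 and 108 (8 h), and 114, 114 and 119 (24 h), again with no overlap between any later time and 0 h. Its log2 fold change was −0.96 (SE 0.0632, edgeR adjusted p 3.21e-09) at 8 h and −0.95 at 24 h, and that at 2 h (−0.28, edgeR adjusted p 0.00423) was lost in 8 of 23 alternatives.

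The catalytic subunits did not fall alike. Stt3a, the subunit that acts while the protein is being made, had 247, 256 and 261 CPM (0 h), 227, 246 and 243 (2 h), 171, 170.5 and 168 (4 h), 151, 145 and 151 (8 h), and 153, 156 and 134 (24 h). Stt3b, whose complex glycosylates sites that were skipped, had 228, 237 and 234 CPM (0 h), 228, 229 and 226 (2 h), 198, 186 and 187 (4 h), 214, 201 and 207 (8 h), and 188, 191 and 200.3 (24 h). Stt3a was not called at 2 h (−0.09) and then fell, with log2 fold changes of −0.58 (SE 0.0640, edgeR adjusted p 1.91e-06) at 4 h, −0.77 at 8 h and −0.79 at 24 h. The changes of Stt3b were −0.29 (edgeR adjusted p 0.000299) at 4 h, −0.17 (edgeR adjusted p 0.0128) at 8 h and −0.27 (edgeR adjusted p 0.000346) at 24 h. The last of these was 0.01 with library totals (edgeR adjusted p 0.932) and so had no direction that held under every scaling.

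The remaining subunits fell late or were not called. Ddost, a shared subunit, had 263, 283 and 289 CPM (0 h), 250.3, 249.96 and 243 (2 h), 241, 236 and 254 (4 h), 198, 195 and 212 (8 h), and 198, 207 and 146 (24 h). It was lower at 8 h (−0.47, edgeR adjusted p 0.000715) and at 24 h (−0.60, SE 0.0983, edgeR adjusted p 5.78e-05), where replicate 3 was the lowest library, and without that library the value was −0.46 (edgeR adjusted p 2.63e-07). Dad1, a small shared subunit, was lower at 8 h (−0.47) and 24 h (−0.33), and its call at 24 h was lost under library totals and upper-quartile factors. Ostc, a subunit of the Stt3a form, was called at no time, with log2 fold changes between −0.32 and −0.16. The lowest of these, at 24 h, was −0.12 without replicate 3 of that time. Magt1, an oxidoreductase subunit of the Stt3b form, had 78.97, 80.3 and 77.6 CPM (0 h), 71.5, 78.5 and 78.7 (2 h), 65.8, 73.04 and 70.3 (4 h), 79.2, 78.6 and 81.6 (8 h), and 70.3, 70.1 and 65.01 (24 h). Its only call, at 24 h (−0.21, edgeR adjusted p 0.00804), was lost in 12 of 23 alternatives, among them the fit without 24 h replicate 3, and the value was 0.07 with library totals. Of 3 further subunits, Krtcap2 of the Stt3a form was lower at 8 and 24 h (−0.40 and −0.50), Tmem258 was called at no time, and Tusc3, the relative of Magt1, was higher at 4, 8 and 24 h (0.48, 0.53 and 0.69). Tusc3 had 29.1, 30.7 and 32.02 CPM (0 h), 35.4, 38.9 and 33.8 (2 h), 39.6, 42.2 and 46.1 (4 h), 42.5, 43.6 and 46.4 (8 h), and 54.8, 55.9 and 37.4 (24 h).

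**Figure D3:**
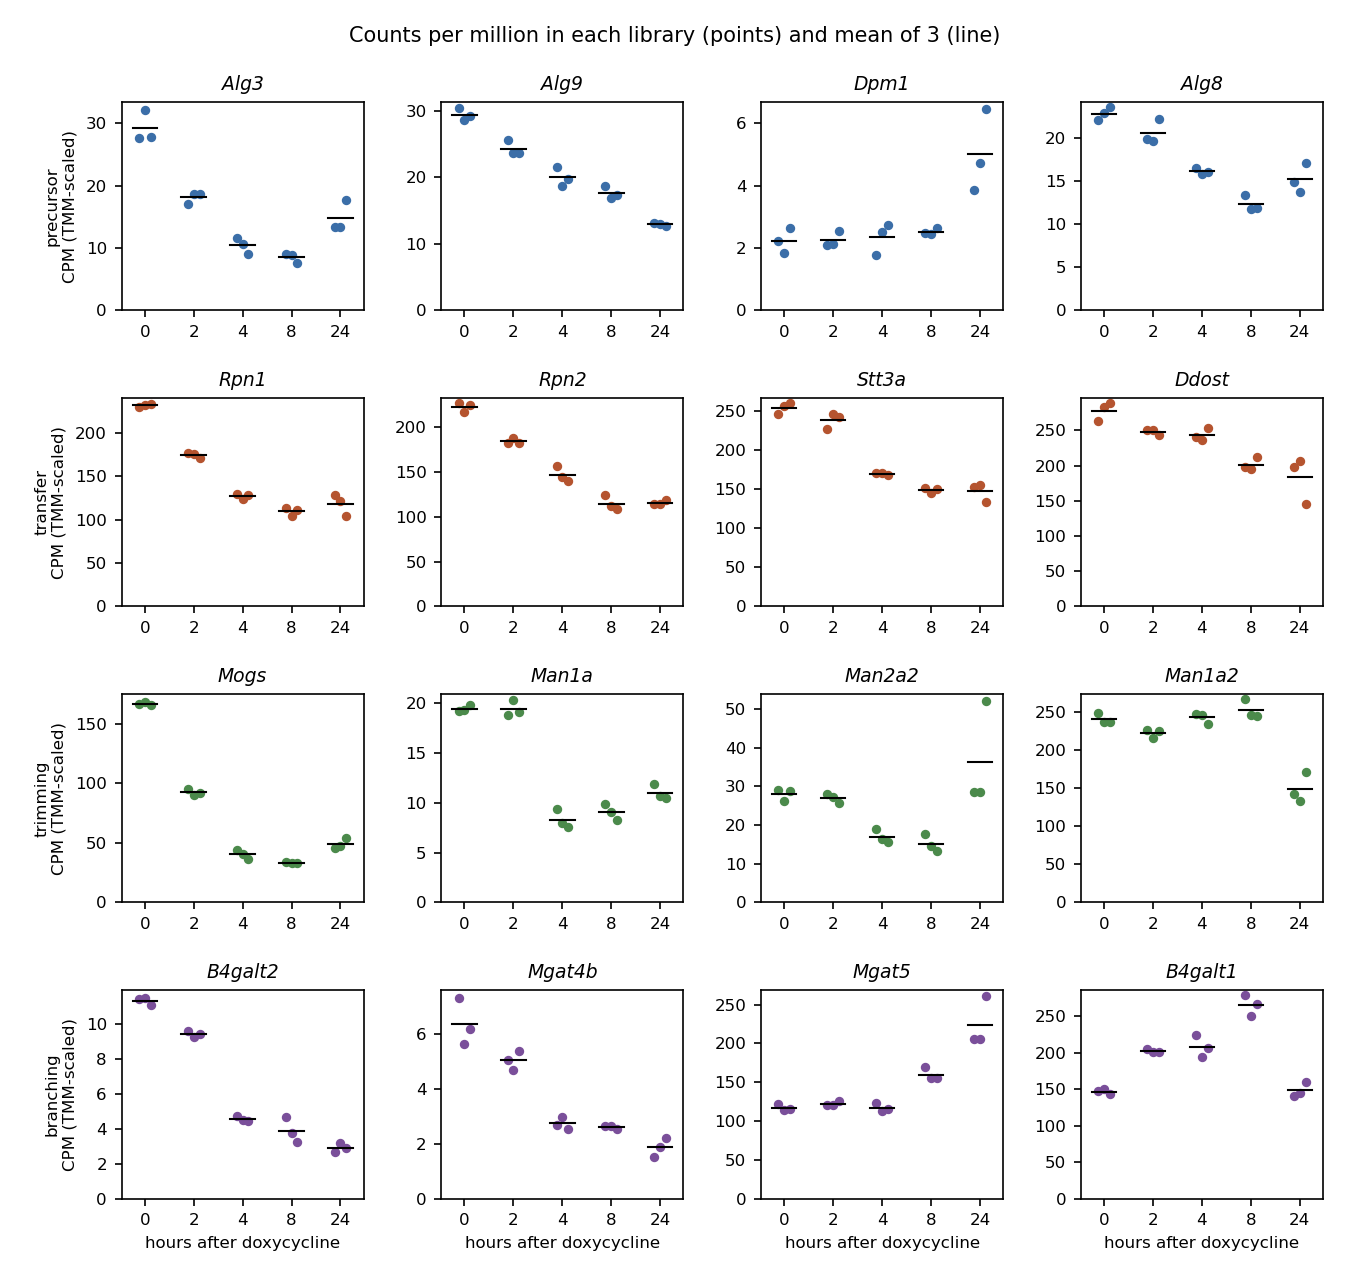
CPM on TMM-scaled totals (vertical axes, from 0) of the 4 genes of each step with the largest called changes against 0 h, by hours after doxycycline, each point 1 library and the line their mean. Mogs is below 100 CPM from 2 h on, B4galt1 peaks at 8 h and is back between 141 and 160 CPM at 24 h, and in Man2a2 and Mgat5 1 of the 3 libraries at 24 h (replicate 3) lies well above the others.

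Mogs showed the largest change of the 43 genes. Mogs (ENSMUSG00000030036.8, chr6:83115496-83118898, 4 exons, none shared with another gene) encodes glucosidase I, which removes the outermost glucose as soon as the glycan has been transferred. It had 167, 168 and 166 CPM (0 h), 95.6, 90.1 and 92.1 (2 h), 44.1, 40.6 and 36.8 (4 h), 33.7, 32.9 and 33.5 (8 h), and 45.9, 47.5 and 54.1 (24 h). No later library overlapped the 0 h group, and the mean at 8 h was 19.99% ± 0.247 of the 0 h mean (SD, n = 3). The log2 fold changes were −0.85 (SE 0.0728, edgeR adjusted p 8.87e-07) at 2 h, −2.04 (edgeR adjusted p 9.65e-12) at 4 h, −2.32 (edgeR adjusted p 1.14e-12) at 8 h and −1.76 (edgeR adjusted p 1.15e-11) at 24 h. At 24 h Mogs was above its 8 h level by 0.56 (SE 0.0749, edgeR adjusted p 2.60e-05, 3.15e-06 without 24 h replicate 3) and below its 0 h level. Ganab, the catalytic subunit of glucosidase II, which removes the next glucoses, had its lowest value at 8 h, −0.29 (edgeR adjusted p 0.00787, lost in 10 of 23 alternatives), and its values at the other times lay between −0.15 and −0.10. Without 24 h replicate 3 Ganab was lower at 24 h (−0.28, edgeR adjusted p 0.000129).

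The Golgi mannosidases of the first class fell at different times. Man1a and Man1a2 both trim mannoses before branching begins. Man1a had 19.2, 19.4 and 19.8 CPM (0 h), 18.8, 20.3 and 19.1 (2 h), 9.34, 7.98 and 7.56 (4 h), 9.90, 9.04 and 8.25 (8 h), and 11.9, 10.6 and 10.5 (24 h). It was not called at 2 h (−0.01) and was lower by 4 h, with a log2 fold change of −1.23 (SE 0.0965, edgeR adjusted p 4.17e-08), which was −1.10 at 8 h and −0.82 (edgeR adjusted p 1.24e-06) at 24 h. Man1a2, the far more abundant of the pair, had 249, 237 and 237 CPM (0 h), 227, 216 and 225 (2 h), 248, 247 and 234 (4 h), 267, 246 and 245 (8 h), and 143, 134 and 172 (24 h). Its libraries at 24 h lay below all earlier ones, with a log2 fold change of −0.69 (SE 0.0794, edgeR adjusted p 1.39e-06), and at 2, 4 and 8 h it was not called (−0.11, 0.01 and 0.07). Man1b1, an ER mannosidase, was lower at all 4 times (−0.37, −0.43, −0.51 and −0.34), the last of these not with library totals (edgeR adjusted p 0.401).

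Man2a1 and Man2a2 encode the mannosidases II that cut after the first branch has been started. Man2a2 had 28.9, 26.2 and 28.7 CPM (0 h), 28.01, 27.1 and 25.8 (2 h), 18.9, 16.4 and 15.7 (4 h), 17.6, 14.5 and 13.4 (8 h), and 28.4, 28.4 and 51.9 (24 h). It was lower at 4 h (−0.72, SE 0.187, edgeR adjusted p 0.00478, lost in 6 of 23 alternatives) and at 8 h (−0.88, edgeR adjusted p 0.000789). At 24 h 2 of its libraries were at the 0 h level and replicate 3 was far above it. The rise between 8 h and 24 h was 1.26 (SE 0.187, edgeR adjusted p 6.48e-05), and 0.91 without 24 h replicate 3 (edgeR adjusted p 1.60e-07). Man2a1 had 66.4, 61.4 and 64.2 CPM (0 h), 57.4, 53.4 and 54.7 (2 h), 63.1, 53.6 and 50.7 (4 h), 70.2, 61.2 and 55.2 (8 h), and 45.2, 47.2 and 69.3 (24 h) and was called at no time. Without 24 h replicate 3, its highest library at that time, Man2a1 was lower at 24 h (−0.47, edgeR adjusted p 9.30e-05).

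In the branching step the galactosyltransferases parted. B4galt1, the main enzyme that adds galactose to branches, had 147, 149.7 and 144 CPM (0 h), 205, 201 and 201 (2 h), 224, 195 and 207 (4 h), 279, 250.1 and 267 (8 h), and 141, 145 and 159.6 (24 h). It was above 0 h in every library at 2, 4 and 8 h, and the groups at 24 h and 0 h overlapped. Its log2 fold changes were 0.46 (SE 0.0676, edgeR adjusted p 0.000125) at 2 h, 0.51 at 4 h, 0.85 (edgeR adjusted p 2.68e-08) at 8 h and 0.02 (edgeR adjusted p 0.851) at 24 h, and between 8 h and 24 h it fell by 0.84 on the log2 scale (edgeR adjusted p 1.79e-07). With library totals its value at 24 h was 0.29 (edgeR adjusted p 0.00200). B4galt2 had 11.4, 11.5 and 11.1 CPM (0 h), 9.60, 9.28 and 9.46 (2 h), 4.76, 4.53 and 4.43 (4 h), 4.66, 3.75 and 3.22 (8 h), and 2.69, 3.21 and 2.87 (24 h). It fell to a log2 fold change of −1.31 (edgeR adjusted p 1.69e-07) at 4 h and −1.96 (SE 0.120, edgeR adjusted p 9.33e-10) at 24 h. Of its exon bases 28.2% are shared with other genes, chiefly Ccdc24 on the same strand, so how its reads were split is uncertain. B4galt3 had 31.1, 31.7 and 28.7 CPM (0 h), 33.1, 28.5 and 28.4 (2 h), 30.01, 25.9 and 26.8 (4 h), 24.4, 21.7 and 22.4 (8 h), and 25.8, 23.4 and 37.3 (24 h) and was called at no time. Its value at 8 h was −0.42 (edgeR adjusted p 0.0152), and without 24 h replicate 3 it was lower both at 8 h (−0.42, edgeR adjusted p 8.86e-05) and at 24 h (−0.31, edgeR adjusted p 0.00366). Of the exon bases of B4galt3, 14.5% are shared with Ppox on the other strand.

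The genes that start the branches also moved in both directions. Mgat1, which starts the first branch, was higher at 8 h only (0.34, edgeR adjusted p 0.000435). At 24 h its value was −0.03, and with library totals 0.24 (edgeR adjusted p 0.00452). Mgat2, which starts the second, was lower at all 4 times, with log2 fold changes of −0.49 (edgeR adjusted p 0.000235) at 2 h and −0.81 (SE 0.0778, edgeR adjusted p 4.55e-07) at 4 h, −0.63 at 8 h and −0.63 at 24 h. The isoenzymes Mgat4a and Mgat4b add a further branch. Mgat4b had 7.30, 5.61 and 6.18 CPM (0 h), 5.03, 4.68 and 5.37 (2 h), 2.69, 2.98 and 2.53 (4 h), 2.64, 2.63 and 2.53 (8 h), and 1.51, 1.86 and 2.20 (24 h). Mgat4a had 42.3, 44.5 and 44.4 CPM (0 h), 46.3, 45.5 and 45.4 (2 h), 61.8, 57.9 and 52.4 (4 h), 61.1, 56.1 and 53.4 (8 h), and 42.8, 43.4 and 56.9 (24 h), with the libraries at 4 h and 8 h wholly above those at 0 h. Mgat4b fell, with −1.22 (SE 0.144, edgeR adjusted p 4.08e-06) at 4 h and −1.77 (edgeR adjusted p 3.56e-08) at 24 h on the log2 scale. Mgat4a was higher at 4 h (0.39, edgeR adjusted p 0.00398) and 8 h (0.38, edgeR adjusted p 0.00372), each lost in 5 of 23 alternatives, all of them fits without 1 library.

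Mgat5 and Fut8 were the branching genes called higher at 24 h. Mgat5 (ENSMUSG00000036155.13, chr1:127205015-127488336) starts the β1,6 branch, which carries polylactosamine ligands of galectins and in T cells raises the threshold of receptor signaling. It had 122, 115 and 116 CPM (0 h), 120.4, 121 and 125 (2 h), 123, 113 and 116 (4 h), 169, 156 and 155 (8 h), and 206, 205 and 261 (24 h). It was not called at 2 or 4 h (0.06 and 0.00), and from 8 h on all libraries were above those of the earlier times. The log2 fold changes were 0.45 (SE 0.0837, edgeR adjusted p 0.000261) at 8 h and 0.93 (edgeR adjusted p 8.33e-08) at 24 h (0.81 without replicate 3 of that time, edgeR adjusted p 2.32e-11). Fut8, which adds core fucose, was higher at all 4 times, with 0.23 at 2 h, 0.38 at 4 h, 0.58 (SE 0.0546, edgeR adjusted p 1.77e-07) at 8 h and 0.24 at 24 h. Its call at 2 h was lost in 11 of 23 alternatives and that at 24 h in 3 of 23. Of 6 further genes of trimming and branching, Man1c1, Mgat4c, Mgat5b and B4galt4 had too few counts to be tested. Manea, a Golgi endomannosidase that removes glucosylated mannose without glucosidases, was higher at 2, 4 and 8 h (0.52, 0.39 and 0.29), and Mgat3, which adds the bisecting N-acetylglucosamine, was at 0.0338 to 0.953 CPM and not called against 0 h.

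The balance within pairs of related genes was compared inside each library, where scaling cancels. With 6 pairs at 4 later times there were 24 comparisons with 0 h by a two-sided exact permutation test, which with 3 libraries against 3 cannot go below p = 0.10, so no ratio could pass a threshold of 0.05. In 21 of the 24 the later libraries lay wholly on 1 side of the 0 h libraries (exact p = 0.10, adjusted p = 0.114). How often pairs of other genes separate in this way was not counted, and 74.2% of all tested genes changed over the time course. The TPM ratio of Stt3a to Stt3b was 0.333, 0.340 and 0.344 at 8 h, against 0.511, 0.510 and 0.525 at 0 h, a log2 difference of −0.60. That of Magt1 to Tusc3 was 0.942, 0.921 and 1.28 at 24 h, against 1.996, 1.92 and 1.78 at 0 h. In both pairs every later library lay below those at 0 h, but the ratio did not fall at each step. The difference of Stt3a to Stt3b at 2 h was only −0.06 (SD 0.06 at 2 h). The level of a TPM ratio depends on the gene lengths used, such as 8948 bases for Stt3a and 4221 for Stt3b, and its change over time does not. By CPM the ratio of Stt3a to Stt3b at 0 h was 1.08, 1.08 and 1.11. That of Mgat4a to Mgat4b at 0 h was 5.80, 7.94 and 7.19 by CPM.

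The trimming pairs swung and came back or reversed. The ratio of Man1a to Man1a2 was 0.0311, 0.0267 and 0.0267 at 4 h and 0.0637, 0.0675 and 0.0693 at 0 h, a log2 difference of −1.25, and at 24 h, when Man1a2 had fallen too, the difference was −0.13 (exact p = 0.6, and 0.01 without 24 h replicate 3). The ratio of Man2a1 to Man2a2 was 5.69, 6.02 and 5.89 at 8 h and 3.28, 3.34 and 3.20 at 0 h (0.84 on the log2 scale), and at 24 h it was below 0 h by 0.59. In branching, the ratio of Mgat4a to Mgat4b was 5.97, 4.92 and 5.45 at 24 h and 1.22, 1.68 and 1.52 at 0 h (1.89). That of B4galt1 to B4galt3 was 14.8, 14.9 and 15.4 at 8 h and 6.12, 6.11 and 6.47 at 0 h (1.27), with overlapping groups at 24 h (0.12).

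**Figure D4:**
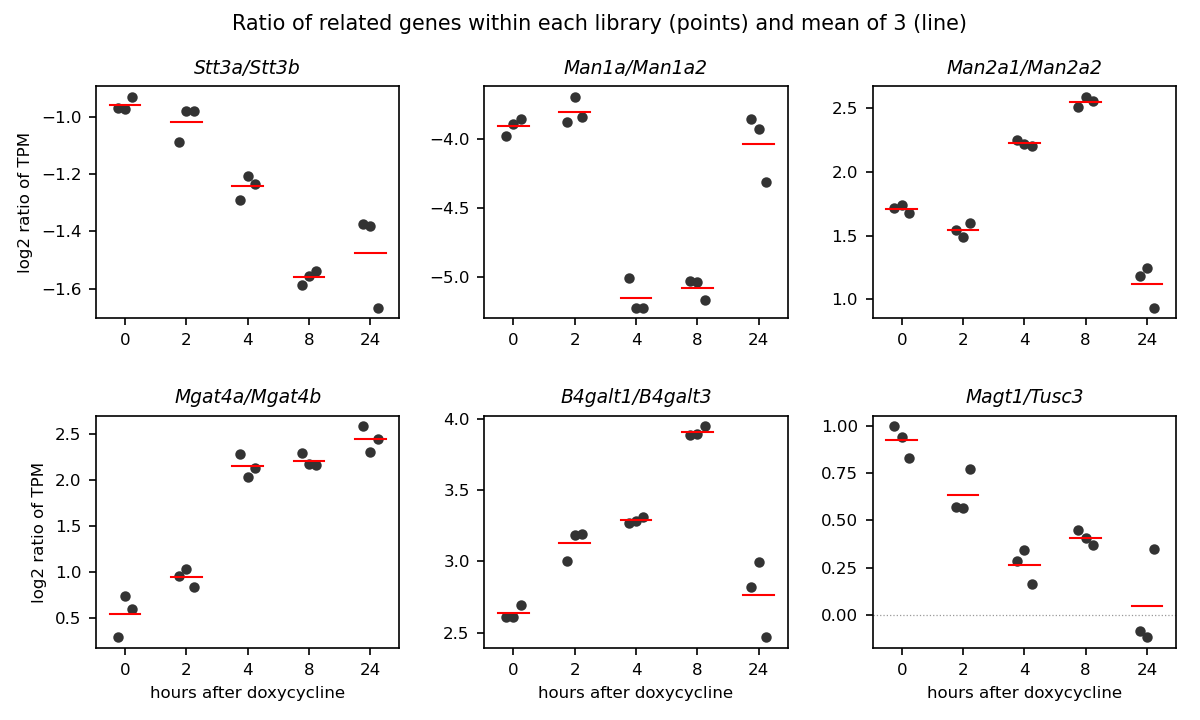
Log2 ratio of the TPM of 2 related genes within each library (points) and the mean of 3 (line), by hours after doxycycline, 1 panel per pair with its own axis. Stt3a/Stt3b and Magt1/Tusc3 lie lower at every later time than at 0 h, Mgat4a/Mgat4b lies higher, and Man1a/Man1a2 and B4galt1/B4galt3 are near their 0 h range at 24 h.

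Between successive times, falls were most numerous from 2 h to 4 h, and some genes turned between 8 h and 24 h. At 4 h against 2 h, 0 of the 43 genes were higher and 12 lower (7.72% and 13% of all tested genes, 20.7% together), led by Man1a (−1.22), Mogs (−1.19), B4galt2 (−1.05), Mgat4b (−0.88) and Alg3 (−0.80). At an unadjusted p under 0.05 edgeR gave 6 higher genes in that comparison, a count not made over all genes. DESeq2 gave 3, where 1571 of the 14485 tested genes were higher. Upper-quartile factors and the fit without 24 h replicate 3 each gave 5 higher, with 9 and 16 lower. Of all tested genes 11.1% and 16.5% were higher and 10.8% and 19.8% lower in these 2 fits. At 8 h against 4 h, 2 were higher and 3 lower (5.73% and 6.97%, 12.7% together), namely Mgat5 and B4galt1 higher (0.45 and 0.35) and Rpn2, Dhdds and Alg8 lower (−0.36, −0.34 and −0.38). Library totals gave 4 and 1, upper-quartile factors 3 and 2, and the fit without 24 h replicate 3 gave 4 and 9. In that order 7.59%, 7.67% and 11.6% of all tested genes were higher and 4.86%, 5.18% and 14.5% lower. At 24 h against 8 h, 5 were higher and 7 lower (20.8% and 17.3%, 38.1% together). The higher ones were Man2a2, Dpm1, Alg3, Mogs and Mgat5, and the lower ones B4galt1, Man1a2, Dolk, Alg9, Mgat1, Fut8 and Magt1. The call of Magt1 was lost in 18 of 23 alternatives. Library totals gave 14 and 3 there (32% and 11% of all tested genes). Without 24 h replicate 3 there were 8 and 10 (21.1% and 17.9%).

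The genes that act on the trimmed glycan during folding and disposal were followed as a further list. With the further precursor, transferase and branching genes named above, 22 of 26 were tested, and 2, 7, 9 and 5 were higher and 1, 2, 4 and 6 lower at 2, 4, 8 and 24 h. Over all tested genes 6.6%, 18.1%, 25.3% and 30.7% were higher and 8.59%, 19.9%, 25.1% and 28.1% lower at these times. The lectin chaperones split: calnexin (Canx), which is membrane-bound, was lower at 4, 8 and 24 h (−0.63, −0.85 and −1.28, the last with SE 0.0655 and edgeR adjusted p 1.03e-10), whereas its soluble relative calreticulin (Calr) was higher at 4 h (0.47) and 8 h (0.65, edgeR adjusted p 3.24e-05) and not at 24 h (0.05). Their partner Pdia3, a disulfide isomerase, was higher at 8 h (0.37). Of this folding list Prkcsh, Uggt1 and Uggt2 were called at no time against 0 h.

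Edem1, which directs misfolded glycoproteins to degradation through their mannoses, had the largest rise of these lists. It had 331, 337 and 337 CPM (0 h), 387, 392 and 385 (2 h), 455, 419 and 429 (4 h), 748, 706 and 690.4 (8 h), and 1085, 1078 and 1251 (24 h), with no overlap between successive times, although 2 h was not called (0.21). Its log2 fold change was 0.37 (edgeR adjusted p 0.000242) at 4 h, 1.09 (edgeR adjusted p 1.42e-09) at 8 h and 1.76 (SE 0.0686, edgeR adjusted p 4.40e-12) at 24 h. The disposal lectin Erlec1 (0.46, 0.56 and 0.46) and the cytosolic peptide N-glycanase Ngly1 (0.59, 0.72 and 0.61) were higher at 4, 8 and 24 h. Engase, which also frees glycans in the cytosol, was higher at 8 h (0.47) and lower at 24 h (−0.71). Edem2 was lower at 24 h (−0.23), Edem3 at 8 h (−0.38), and Os9 was called at no time. The fall of Edem2 depended on the scale: by TPM it had 43.5, 42.1 and 43.4 at 24 h and 39.4, 40.4 and 38.7 at 0 h.

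Promoter windows of these genes were searched for CACGTG, the E-box that MYC with its partner MAX is known to bind, because MYC was the factor switched off. RefSeq windows of 300 bases (250 before and 50 after the start site, build GRCm38.p6) were on hand for 36 of the 43 genes, and not for Mgat4b, Alg2, Man1a2, Ostc, Man2a2, Dpagt1 and Alg11. The motif reads the same on both strands. It was in the windows of 5 of the 36 genes (13.9%), against 8.09% of the 27025 genes with a window. These were Dolk with 2 matches, and Alg1, Dhdds, Dpm2 and Magt1 with 1 each, starting 162 bases (Dhdds), 97 bases (Magt1) and 23 bases (Dpm2) before the start site. The windows of Mogs and B4galt1, the genes with the deepest fall and the highest rise at 8 h, hold none, and a match or its absence in this window says nothing of binding. The 4 windows below are shown so that the fallers with and without a match and the riser can be compared. Whether a match goes with a fall was not tested. Among the genes with a match, the calls of Dolk at 24 h and Alg1 at 4 h held in all 23 alternatives. Those of Dolk and Alg1 at 8 h were lost in 9 and 5 of 23, and that of Alg1 at 24 h with library totals. Dpm2 was called at no time, and the calls of Magt1 at 24 h and Dhdds at 8 h were lost in 12 and 11 of 23 alternatives. The 4 windows run 5′ to 3′ on the strand of the gene, with the E-box in capitals: Dolk at chr2:30286305-30286604 (minus strand, matches 43 bases and 1 base before the start site), Alg1 at chr16:5233371-5233670 (plus strand, match from base 4 of the transcript), Mogs at chr6:83115256-83115555 (plus strand) and B4galt1 at chr4:40853935-40854234 (minus strand).
Dolk: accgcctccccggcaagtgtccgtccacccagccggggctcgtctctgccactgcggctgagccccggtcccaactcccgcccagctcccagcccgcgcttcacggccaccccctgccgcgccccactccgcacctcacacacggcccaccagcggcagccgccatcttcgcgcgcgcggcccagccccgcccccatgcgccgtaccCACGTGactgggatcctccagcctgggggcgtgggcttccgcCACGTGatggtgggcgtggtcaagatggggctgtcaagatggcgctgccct
Alg1: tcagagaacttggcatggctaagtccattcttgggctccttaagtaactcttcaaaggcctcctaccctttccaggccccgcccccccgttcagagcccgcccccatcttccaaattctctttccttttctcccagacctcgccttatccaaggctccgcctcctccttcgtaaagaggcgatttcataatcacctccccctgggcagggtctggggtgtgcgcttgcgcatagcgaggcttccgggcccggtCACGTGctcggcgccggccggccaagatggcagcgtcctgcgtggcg
Mogs: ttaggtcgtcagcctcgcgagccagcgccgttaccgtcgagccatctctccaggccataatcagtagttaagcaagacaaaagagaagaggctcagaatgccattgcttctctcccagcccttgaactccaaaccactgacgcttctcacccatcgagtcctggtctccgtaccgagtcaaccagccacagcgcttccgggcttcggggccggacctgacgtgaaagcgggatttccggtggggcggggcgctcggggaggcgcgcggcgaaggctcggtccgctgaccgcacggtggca
B4galt1: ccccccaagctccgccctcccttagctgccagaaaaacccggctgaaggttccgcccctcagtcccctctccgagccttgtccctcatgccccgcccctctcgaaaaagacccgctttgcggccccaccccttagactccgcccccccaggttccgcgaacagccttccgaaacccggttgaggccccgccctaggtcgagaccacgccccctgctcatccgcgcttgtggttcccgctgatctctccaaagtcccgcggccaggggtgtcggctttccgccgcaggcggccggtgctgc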

How the data were processed

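RNA-seq of 15 libraries (5 times, 3 each) was grouped by the time in the labels. For each library the authors deposited raw counts per gene, from which FPKM and TPM had been made; per the labels' processing notes cutadapt 1.16, STAR 2.5.4b and featureCounts (version not stated) were used with mm10. The deposited TPM are counts per transcript length scaled by the authors to a fixed library total, and were used here for levels between genes and for ratios. FPKM were not used.

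The quasi-likelihood test of edgeR 4.0.16 (R 4.3.3) was run on the counts (filterByExpr, TMM, glmQLFit over all libraries with 1 mean per time and no block, glmQLFTest), with Benjamini-Hochberg adjustment over the 14485 genes tested and a threshold of 0.01. Library totals were 25852711 to 27102318 counts, so that the floor of 3 counts, for counting error only, was 0.111 to 0.116 CPM. Positions come from GENCODE M21 on GRCm38 (53274 of 53379 mouse IDs matched without version), and promoter sequences from RefSeq (GRCm38.p6). Alternatives were other scalings (RLE, library totals, upper quartile), no filter or a minimum of 10 counts in each library, the tool DESeq2 1.42.0, a threshold of 0.05, a fit of only the times compared, a replicate block, and each library left out. The fits were tested on simulated data.

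Values per library are given for the 4 genes of each step with the largest called changes and for both genes of each pair. Up to 4 genes of each further list with the largest called changes are named by the same rule, and the rest of those lists were named after their values were seen. The members, lists and pairs were chosen with earlier results of these data known. Because the comparisons with 0 h share libraries, they were not compared by overlap.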

Additional observations from a re-analysis of the deposited data

How the results depend on the processing

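Of 301 results of single genes (43 genes in 7 comparisons), 121 passed the threshold, and 84 of these passed it under all 23 alternatives. Among values that kept their sign, library totals removed 19 calls and added 18. At 24 h against 0 h they turned the sign of 10 of the 43 values, 3 of which were called in 1 of the fits: Stt3b was 0.0059, Magt1 0.070 and Mgat1 0.24. Of these 3, Stt3b and Magt1 lost their calls as well, and Mgat1 was newly called. The other 7 (Alg10b, Alg14, B4galt3, Dhdds, Dpm2, Ganab and Man2a1) were called in neither. The 43 genes higher at 24 h were then 11, and at 24 h against 8 h 14 were higher and 3 lower, with 4636 higher and 1596 lower among all tested genes (3014 and 2506 with TMM). At 8 h against 4 h library totals gave 4 higher and 1 lower. RLE factors gave 1 higher gene at 2 h, and upper-quartile factors gave 8 at 4 h and 5 at 4 h against 2 h. Without the low-count filter 1 of the 43 was higher at 2 h and 1 at 4 h against 2 h, with 1011 and 1355 higher among the 26532 genes then tested. DESeq2 gave 3 higher at 4 h against 2 h, and 4 higher and 6 lower at 8 h against 4 h. Among all 14485 genes it gave 1571 higher at 4 h against 2 h, 1123 higher and 1386 lower at 8 h against 4 h, and 1900 lower at 2 h. The cause of these shifts was not tested.

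A threshold of 0.05 gave, among the 43, 8 higher at 4 h, 6 at 4 h against 2 h, 4 at 8 h against 4 h (8 lower) and 10 at 24 h against 8 h (11 lower). Among all genes it gave 1634 higher and 1898 lower at 2 h, 2114 higher at 4 h against 2 h, and 1522 higher and 1735 lower at 8 h against 4 h. It also gave 3850 of all genes higher at 4 h, and 4193 higher and 3413 lower at 24 h against 8 h. A fit of only the times compared, with fewer libraries behind the spread, gave 5 higher and 14 lower of the 43 at 2 h, 3 higher at 24 h, 5 higher at 4 h against 2 h, 6 lower at 8 h against 4 h and 2 higher at 24 h against 8 h. Among all genes it gave 2432 higher and 2794 lower at 2 h, 2253 higher at 4 h against 2 h, and 782 higher and 1151 lower at 24 h against 8 h. It also gave 3119 of all genes higher at 24 h and 1116 lower at 8 h against 4 h.

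With 1 library left out, the 43 genes gave 1 to 3 higher at 2 h, 3 to 7 higher at 4 h, 0 to 5 higher at 4 h against 2 h, 1 to 4 higher and 1 to 9 lower at 8 h against 4 h and 5 to 8 higher at 24 h against 8 h. All tested genes gave 603 to 1744 higher and 774 to 2167 lower at 2 h, 1698 to 3882 higher at 4 h, 487 to 2414 higher and 1436 to 2907 lower at 4 h against 2 h, and 482 to 1696 higher and 609 to 2128 lower at 8 h against 4 h. At 24 h against 8 h they gave 2172 to 3205 higher. Most of the highest values came without 24 h replicate 3. For the 43 genes the lowest came without any 1 of the 0 h and 2 h libraries, 4 h replicate 2 or 8 h replicate 2 (1 higher at 2 h), without 0 h replicate 1 or 4 h replicate 2 (3 higher at 4 h), without 4 h replicate 2 (1 higher at 8 h against 4 h), and without 4 h replicate 1 or 8 h replicates 2 or 3 (1 lower there). For all tested genes the lowest came without 0 h replicate 2 (603), 2 h replicate 3 (774), 4 h replicate 3 (1698 and 487), 4 h replicate 1 (482), 8 h replicate 2 (609) or 8 h replicate 3 (2172).

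With the replicate block, 7 calls of single genes were lost and 1 was gained, and 1 of the 43 was higher at 2 h (829 of all tested genes). The numbers were not taken to pair the samples, because only 3 of 30 same-numbered pairs correlated above 0.1 (median 0.03). Of the 18 such pairs among 0 to 8 h, 17 were above 0 (up to 0.21), against 3 of the 12 pairs with 24 h, and 9 of 15 libraries correlated best with their own number, which is a hint from the data and not from the design. Scaling cancels in the ratios of paired genes. Leaving out 1 library turned 1 of the 24, Man1a/Man1a2 at 24 h (0.01 without 24 h replicate 3).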
